A study of Mus musculus with 10 samples.

Results

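The 31 genes described here make cholesterol and fatty acids or control that synthesis. They were chosen by symbol from a list of pathway genes, matched to mouse Ensembl identifiers in the GRCm38 annotation, and are 31 of 52636 rows of the count table. The list holds 18 enzymes of the sterol arm, 7 enzymes of the fatty acid arm, 5 regulators of the SREBP system and the sterol carrier Stard4. Expression was measured by sequencing polyadenylated RNA of mouse melanoma tumours, and the series compares 2 genotypes. In 6 tumours the genotype was BrafCA;Cdkn2af/f; Arf6Q67L, and in 4 control tumours it was BrafCA;Cdkn2af/f. BrafCA is a Cre-activated oncogenic allele of the kinase gene Braf, Cdkn2af/f is a floxed tumour suppressor locus, and both groups carry them. The product of Arf6Q67L is an ARF6 protein, a small GTPase of membrane traffic, locked in its active form. No source used here states the Cre driver, the age and sex of the mice, or whether any tumours came from 1 animal. The p-values below therefore set the difference between genotypes against the spread between these tumours, each treated as independent.

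Cholesterol is built from acetyl-CoA through mevalonate, farnesyl diphosphate, squalene and lanosterol, while the fatty acid arm turns citrate or acetate into acetyl-CoA, then into malonyl-CoA, palmitate and longer or unsaturated chains. Many genes of both arms are targets of the SREBP transcription factors, encoded by Srebf1 and Srebf2. SREBP precursors sit in the endoplasmic reticulum bound to SCAP, and the INSIG proteins hold that complex back when sterols are plentiful. When sterols run low, the complex moves to the Golgi, where proteases release the active factor. The Srebf2 product acts mainly on sterol genes and the Srebf1 product more on fatty acid genes.

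Library totals lay between 31372896 and 37918116 counts in Arf6Q67L tumours and between 28635414 and 40869091 in controls. Arf6 averaged 104 CPM (counts per 1e+06, SD 21.3, n = 6) in Arf6Q67L tumours against 93.0 CPM (SD 17.4, n = 4) in control tumours, so its level does not check the genotype labels, and gene counts do not show the base change. Braf and Cdkn2a, whose alleles both groups carry, had edgeR adjusted p-values of 0.442 and 0.797. Of the melanocyte markers, Tyr and Dct had 0 counts in all 10 tumours and Mlana and Tyrp1 stayed at or below 0.101 CPM. Pmel ran from 0.524 to 0.940 CPM and Mitf from 11.1 to 26.1 CPM. Sox10 was at 2.83 CPM in Arf6Q67L tumour 6, at 1.27 CPM in control 3 and at no more than 0.251 CPM in the others. Control 4 stood apart in markers of other cells. The summed level of 10 adipocyte markers was 18.2 to 42.1 CPM in Arf6Q67L tumours, against 19.2 to 41.2 CPM in controls 1 to 3 and 179 CPM in control 4, where Adipoq was at 18.1 CPM and Plin1 at 8.89 CPM. For 7 T cell markers it was 13.4 to 80.002 CPM in Arf6Q67L tumours, against 26.6 to 204 CPM in controls 1 to 3 and 288 CPM in control 4. For 8 macrophage markers it was 790 to 1798 CPM in Arf6Q67L tumours, against 1311 to 2355 CPM in controls 1 to 3 and 3526 CPM in control 4. For 7 skeletal muscle markers it was 15.7 to 746 CPM in Arf6Q67L tumours, against 3.24 to 40.2 CPM in controls 1 to 3 and 1161 CPM in control 4. Control 4 was thus the highest tumour for all 4 lists. Of 8 sebocyte markers 4 were under 1 CPM in every tumour, as were 5 of 7 keratinocyte markers. The sebocyte markers summed to 5.14 to 11.1 CPM in Arf6Q67L tumours, highest in tumour 6, and to 5.23 to 7.38 CPM in controls. The keratinocyte markers summed to 4.00 to 6.84 CPM, again highest in tumour 6, against 4.50 to 6.38 CPM in controls. Krt14 was at 1.17 CPM in Arf6Q67L tumour 6 and at 0 CPM in every other tumour. The 7 Schwann cell and myelin markers summed to 41.9 to 73.0 CPM in Arf6Q67L tumours and 45.9 to 78.7 CPM in controls. Xist was at 1226 to 1686 CPM in Arf6Q67L tumours 1, 3 and 4, and at 1190.1 CPM in control 1. It was at no more than 0.975 CPM in the other 6 tumours, so both groups held tumours with and without it. The Y-linked gene Ddx3y was at no more than 0.188 CPM in the tumours with Xist and at 59.4 to 124 CPM in the others. By these genes the tumours with Xist were from females and the others from males, unevenly spread over the genotypes.

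In the fit on genotype alone, the fatty acid arm showed the larger differences between genotypes, and the sterol arm stood close to 0. In Arf6Q67L tumours relative to controls, 6 of 7 fatty acid genes had a positive log2 fold change, with a median of 0.35, against 13 of 18 sterol genes at a median of 0.06. With the T cell marker level of each tumour as a term in the fit, both arms had similar medians, 0.25 for fatty acid genes and 0.22 for sterol genes. The median over all 17286 genes tested was -0.0018, with 8584 of them positive. All 31 genes passed the filter on low counts, with raw counts between 151 for Fdps and 29478 for Scd2, so none is left out of these numbers. After Benjamini-Hochberg adjustment over all genes, edgeR's quasi-likelihood test called 0 of the 31 genes, as it did 0 genes (0%) of all 17286 in either direction. At an unadjusted p under 0.05 it found 3 of the 31 higher, all of the fatty acid arm, and 0 lower, where 4.65% of all genes tested were higher and 7.05% lower. With the T cell marker level as a term, 0 of these 3 genes had such a p (Acaca 0.179, Fasn 0.0833, Elovl6 0.146). Over all 17286 genes, 468 were higher and 603 lower at such a p with that term, against 804 and 1219 with genotype alone. In the fit on genotype alone, 9.68% of the 31 genes had such a p, against 11.7% of all genes. DESeq2 also called 0 of the 31 genes, against 0.966% of all genes called higher and 1.42% called lower. In 0 of the 31 genes did the groups separate fully, whereas 1.15% of all genes had every Arf6Q67L tumour above every control and 1.28% every one below. The measurements come from bulk tissue, so that fewer cells of a type and less RNA per cell cannot be told apart.

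**Figure D1:**
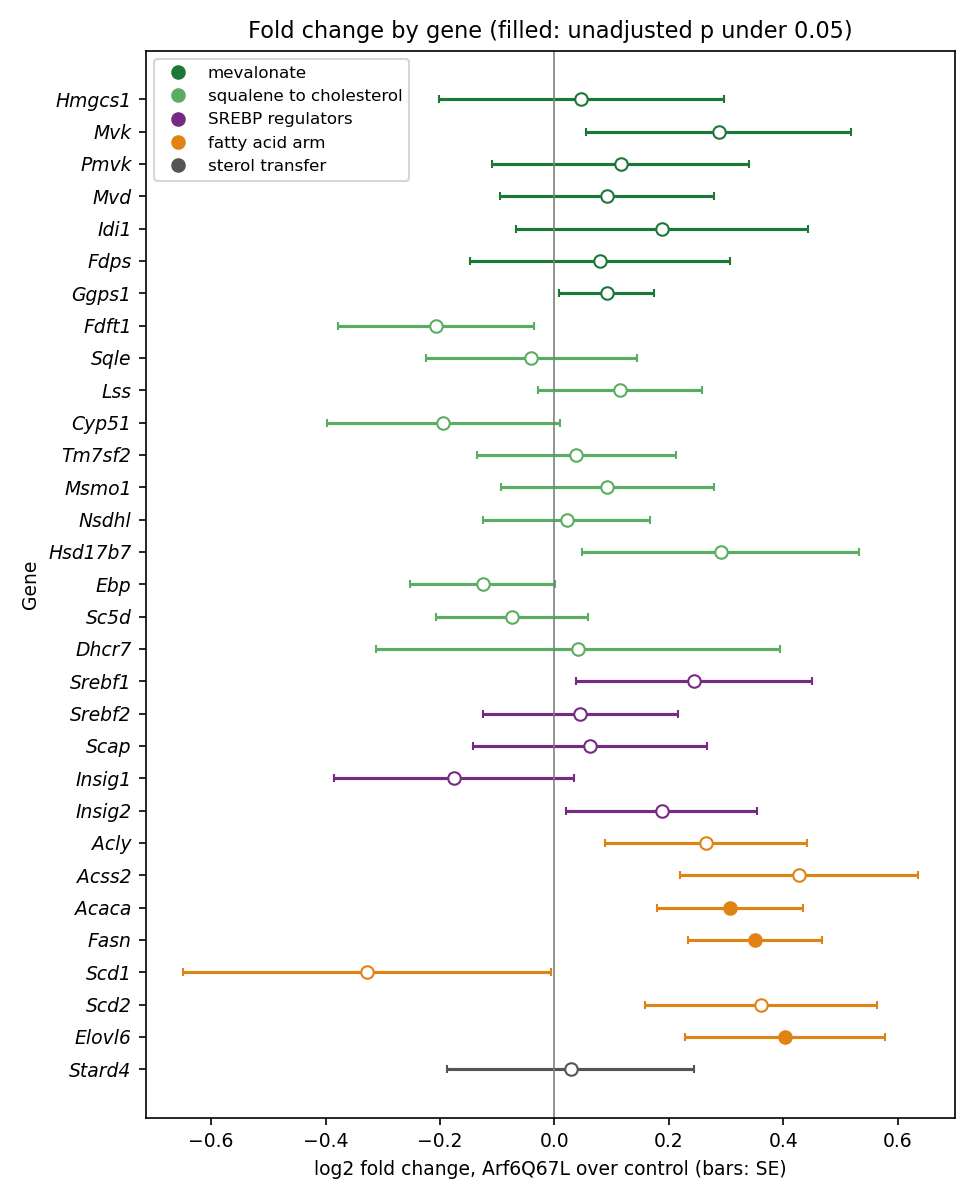
Log2 fold change of each of the 31 genes, Arf6Q67L over control, with its standard error, coloured by role. Filled points are the 3 genes with an unadjusted p under 0.05 (Acaca, Fasn and Elovl6), and Scd1 is the only fatty acid gene left of 0.

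Fatty acid synthesis starts with cytosolic acetyl-CoA, which Acly makes from citrate and Acss2 from acetate. Acly ran from 211 to 353 CPM in Arf6Q67L tumours (median 254) and was at 236, 272, 184 and 198 CPM in controls 1 to 4. The difference between genotypes was 0.26 on the log2 scale (SE 0.18, edgeR adjusted p = 0.595). Acss2 ran from 6.13 to 10.5 CPM in Arf6Q67L tumours (median 8.28) and was at 5.12, 5.25, 7.05 and 7.41 CPM in controls 1 to 4. In 4 of 6 Arf6Q67L tumours it was above every control, and tumours 3 and 4 lay within the control range. Acss2 had the highest log2 fold change of the 31 genes, 0.43 (SE 0.21, edgeR unadjusted p = 0.0658, adjusted p = 0.458).

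Acaca and Fasn catalyse the committed step and the chain assembly. Acaca (ENSMUSG00000020532, chromosome 11, 84129672 to 84401651, plus strand, GRCm38) encodes acetyl-CoA carboxylase, which makes malonyl-CoA. It ran from 48.4 to 66.9 CPM in Arf6Q67L tumours (median 57.3) and was at 44.3, 57.0, 42.4 and 40.5 CPM in controls 1 to 4. The groups overlapped through control 2, which lay above Arf6Q67L tumours 4, 5 and 6. The log2 fold change was 0.31 (SE 0.13, edgeR unadjusted p = 0.0367, adjusted p = 0.400). The count of Acaca is uncertain, because 52.6% of the 50-base windows of its longest transcript also occur in the transcript of Gm5182, a copy on chromosome 12 that was itself at no more than 0.447 CPM in any tumour.

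Fasn (ENSMUSG00000025153, chromosome 11, 120805846 to 120824547, minus strand, GRCm38) encodes fatty acid synthase, which builds palmitate from malonyl-CoA. It ran from 188 to 265 CPM in Arf6Q67L tumours (median 212) and was at 189, 167, 168 and 161 CPM in controls 1 to 4. In 4 of 6 Arf6Q67L tumours it was above every control, and tumours 3 and 4 lay just under control 1. Arf6Q67L tumours averaged 219 ± 31.5 CPM (SD, n = 6), against 171 ± 12.2 CPM (SD, n = 4) for control tumours, and the difference on the log2 scale was 0.35 (SE 0.12). Fasn had the lowest p of the 31 genes, at 0.0134 before and 0.336 after adjustment in edgeR, and 0.113 after adjustment in DESeq2. Its unadjusted edgeR p stayed between 0.00711 and 0.0334 whichever tumour was left out, and was 0.0235 with the adipocyte marker level as a term. With the T cell marker level as a term that p was 0.0833, at a log2 fold change of 0.25.

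The last steps lengthen the chain and add double bonds. Elovl6, the elongase that acts on palmitate (ENSMUSG00000041220, chromosome 3, 129532355 to 129638495, plus strand, GRCm38), ran from 31.5 to 45.1 CPM in Arf6Q67L tumours (median 39.5) and was at 35.9, 33.3, 27.8 and 20.1 CPM in controls 1 to 4. Its lowest value was in control 4, and Arf6Q67L tumours 1 and 5 lay within the control range. The log2 fold change was 0.40 (SE 0.17, edgeR unadjusted p = 0.0432, adjusted p = 0.414), and 0.27 (unadjusted p = 0.103) without control 4. Acaca likewise had an unadjusted p of 0.0892 without control 4.

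Both stearoyl-CoA desaturases, which place the first double bond in palmitoyl- and stearoyl-CoA, were abundant, and they pointed in opposite directions. Scd1 (ENSMUSG00000037071, chromosome 19, 44394455 to 44407879, minus strand, GRCm38) ran from 122 to 344 CPM in Arf6Q67L tumours (median 156) and was at 197, 233, 156 and 368 CPM in controls 1 to 4. It was highest in control 4 and next highest in Arf6Q67L tumour 3. For Scd1 the log2 fold change was -0.33 (SE 0.32, edgeR adjusted p = 0.735), and -0.03 without control 4. Control 4 was the highest tumour for adipocyte, T cell, macrophage and skeletal muscle markers. The part of these cells in the level of Scd1 was not tested beyond fits with a marker level as a term. The log2 fold change was -0.16 with the adipocyte term and -0.17 with the T cell term.

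Scd2 (ENSMUSG00000025203, chromosome 19, 44293674 to 44306864, plus strand, GRCm38) ran from 524 to 767 CPM in Arf6Q67L tumours (median 659) and was at 584, 535, 586 and 310 CPM in controls 1 to 4. Control 4, the highest tumour for Scd1, was the lowest for Scd2. The log2 fold change of Scd2 was 0.36 (SE 0.20, edgeR adjusted p = 0.524), and 0.20 without control 4. The paralogues share few stretches, since 4.66% of the 50-base windows of the Scd1 transcript and 4.01% of those of Scd2 occur in other genes.

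**Figure D2:**
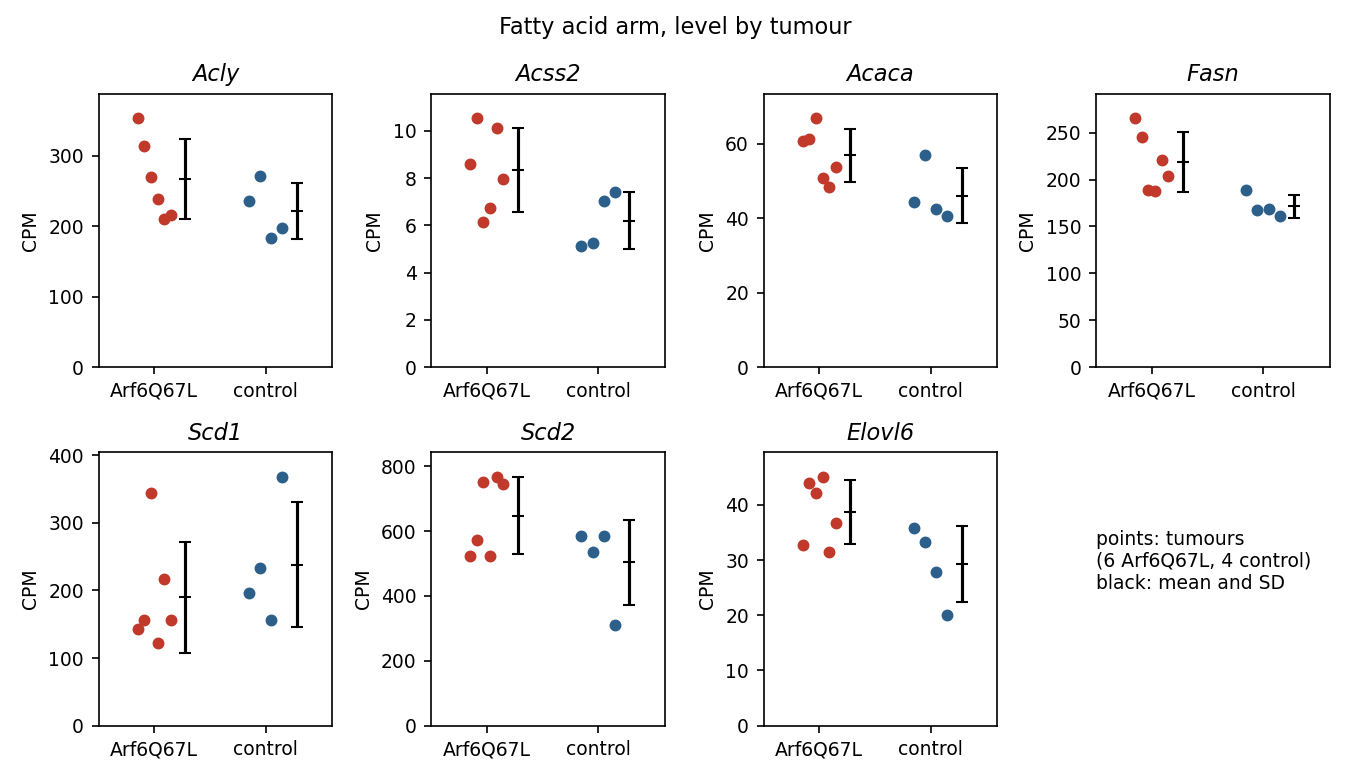
Level of the 7 fatty acid genes in CPM, one point per tumour, 6 Arf6Q67L at left and 4 control at right in each panel, with the mean and SD in black. Fasn ranges from 188 to 265 CPM in Arf6Q67L tumours and from 161 to 189 CPM in controls; Scd1 and Scd2 show control 4 at opposite ends.

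Levels between genes were compared per transcript length, as TPM (transcripts per 1e+06) over the exons of each gene. Scd2 was the most abundant of the 31, at 397 ± 68.1 TPM (SD, n = 6) in Arf6Q67L tumours and 285 ± 76.4 TPM (SD, n = 4) in controls, followed by Acly at 171 ± 41.6 and 130.1 ± 22.7 TPM and Scd1 at 129 ± 50.1 and 150.1 ± 56.7 TPM. The levels of Acly and Scd1 overlapped within 1 SD. Acss2 was the lowest, at 2.77 ± 0.645 TPM in Arf6Q67L tumours and 1.89 ± 0.355 TPM in controls, over a summed exon length of 10163 bases, where its longest coding transcript has 2931 bases. The most abundant sterol enzymes over all tumours were Dhcr7 at 52.1 TPM, Hmgcs1 at 51.8 TPM, Cyp51 at 51.4 TPM and Msmo1 at 50.2 TPM, which were not separable by their spread. The level of Fdps, 5.66 ± 0.898 TPM in Arf6Q67L tumours and 4.94 ± 1.36 TPM in controls, is uncertain, since 86.4% of its 50-base windows occur in 8 other annotated genes. That share was 21.3% for Idi1, 10.9% for Fdft1 and 6.79% for Ggps1, and under 5% for the other genes except Acaca. Exons also overlapped other genes on the opposite strand, over 774 bases for Fdft1 (with Ctsb), 927 for Acss2, 985 for Scap, 557 for Hmgcs1, 381 for Lss and 323 for Idi1, and on the same strand over 1124 bases for Fdps (with Gm43738) and 532 bases for Tm7sf2 (with Vps51), so reads there may belong to either gene.

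The mevalonate part of the sterol arm had 7 of 7 positive log2 fold changes, with a median of 0.09, and in edgeR 0 of 7 had an unadjusted p under 0.05. Without control 3, 3 of 7 were positive and the median was -0.0087. Hmgcs1, which condenses acetyl-CoA and acetoacetyl-CoA to HMG-CoA (ENSMUSG00000093930, chromosome 13, 119690379 to 119708260, plus strand, GRCm38), ran from 53.7 to 92.1 CPM in Arf6Q67L tumours (median 74.8) and was at 62.8, 77.6, 39.7 and 107 CPM in controls 1 to 4. The highest and the lowest tumours were both controls, and all 6 Arf6Q67L tumours lay between them. Hmgcs1 had a log2 fold change of 0.05 (SE 0.25, edgeR adjusted p = 0.961). Mvk, mevalonate kinase, ran from 11.1 to 20.6 CPM in Arf6Q67L tumours (median 14.2) and was at 10.7, 12.8, 9.44 and 17.7 CPM in controls 1 to 4. Arf6Q67L tumours 5 and 6 were above every control, and the log2 fold change was 0.29 (SE 0.23, edgeR adjusted p = 0.671).

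The next kinase, Pmvk, and the decarboxylase Mvd had log2 fold changes of 0.12 (SE 0.22) and 0.09 (SE 0.19). Both were highest in Arf6Q67L tumour 5, at 28.5 CPM for Pmvk and 24.9 CPM for Mvd. Idi1, the isopentenyl diphosphate isomerase, was at 6.20 CPM in control 3 and between 11.4 and 18.3 CPM in the other 9 tumours. The log2 difference was 0.19 (SE 0.26), and -0.04 without control 3. Fdps, farnesyl diphosphate synthase, had a log2 fold change of 0.08 (SE 0.23). Ggps1, which leads away from sterols to the geranylgeranyl group used in protein prenylation, varied least of the 31 genes, its highest tumour being 1.25 times its lowest, and had a log2 fold change of 0.09 (SE 0.08).

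From squalene to cholesterol, 6 of 11 genes were positive and 5 negative, at a median of 0.02, and 2 of 11 were positive without control 3. Fdft1, squalene synthase, ran from 40.7 to 69.5 CPM in Arf6Q67L tumours (median 52.1) and was at 48.6, 73.8, 51.9 and 72.9 CPM in controls 1 to 4. Its log2 fold change of -0.21 (SE 0.17, edgeR adjusted p = 0.682) was the lowest of the sterol arm. Sqle, the squalene epoxidase that is a rate-limiting step (ENSMUSG00000022351, chromosome 15, 59315077 to 59331192, plus strand, GRCm38), ran from 58.3 to 104 CPM in Arf6Q67L tumours (median 72.0) and was at 90.0, 86.2, 56.7 and 67.8 CPM in controls 1 to 4. Its log2 fold change was -0.04 (SE 0.18, edgeR adjusted p = 0.954). For Fdft1, controls 2 and 4 lay above every Arf6Q67L tumour and Arf6Q67L tumours 1 and 3 below every control, while the groups overlapped between. For Sqle, tumour 3 was the highest of all and control 3 the lowest.

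Lss, which closes the ring to lanosterol, had a log2 fold change of 0.11 (SE 0.14). Among the enzymes that trim lanosterol, Cyp51 stood at -0.19 (SE 0.20), Tm7sf2 at 0.04 (SE 0.17), Msmo1 at 0.09 (SE 0.19) and Nsdhl at 0.02 (SE 0.15). Hsd17b7, a ketosteroid reductase, ran from 23.4 to 38.8 CPM in Arf6Q67L tumours (median 30.98) and was at 30.6, 35.7, 15.4 and 18.1 CPM in controls 1 to 4. Controls 3 and 4 lay below every Arf6Q67L tumour and controls 1 and 2 within their range. Hsd17b7 had a log2 fold change of 0.29 (SE 0.24, edgeR adjusted p = 0.687).

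Of the late enzymes, the isomerase Ebp had a log2 difference of -0.13 (SE 0.13), and for the desaturase Sc5d it was -0.07 (SE 0.13). Dhcr7, which makes cholesterol from its last precursor, had the widest error of the arm, a log2 fold change of 0.04 with an SE of 0.35. It was at 142 and 144 CPM in Arf6Q67L tumours 1 and 2, 97.3 CPM in tumour 4 and 57.1 to 63.4 CPM in tumours 3, 5 and 6, and at 126, 113, 70.7 and 54.1 CPM in controls 1 to 4. Thus tumours of either genotype differed by more than the genotypes did. Stard4, which carries cholesterol between membranes, ran from 14.6 to 28.8 CPM in Arf6Q67L tumours (median 18.9) and was at 17.8, 21.8, 14.7 and 25.8 CPM in controls 1 to 4, with a log2 fold change of 0.03 (SE 0.22, edgeR adjusted p = 0.976).

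The 5 regulators had a median log2 fold change of 0.06, with 4 of 5 positive. Srebf1 (ENSMUSG00000020538, chromosome 11, 60199089 to 60222581, minus strand, GRCm38) ran from 106 to 208 CPM in Arf6Q67L tumours (median 139) and was at 113, 146, 143 and 87.2 CPM in controls 1 to 4. Tumours 1 and 6 were above every control. The log2 fold change was 0.24 (SE 0.21, edgeR adjusted p = 0.692), and 0.12 without tumour 6. Srebf2 (ENSMUSG00000022463, chromosome 15, 82147181 to 82205379, plus strand, GRCm38) ran from 94.0 to 167 CPM in Arf6Q67L tumours (median 107) and was at 120.1, 129, 94.9 and 103 CPM in controls 1 to 4. Its log2 fold change was 0.05 (SE 0.17, edgeR adjusted p = 0.944). The counts cover all transcripts of a gene, so the forms of Srebf1 are not told apart, and mRNA does not show how much SREBP protein was released.

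Insig1, itself an SREBP target, ran from 20.2 to 36.3 CPM in Arf6Q67L tumours (median 29.5) and was at 24.1, 35.7, 24.3 and 44.0 CPM in controls 1 to 4. It was highest in control 4 and lowest in Arf6Q67L tumour 1, and its log2 fold change was -0.18 (SE 0.21, edgeR adjusted p = 0.788). Insig2 stood at 0.19 (SE 0.17) and was highest in Arf6Q67L tumour 3, at 50.6 CPM against 26.2 to 34.7 CPM in the other 9 tumours. Scap stood at 0.06 (SE 0.20) and was highest in control 1, at 83.8 CPM.

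**Figure D3:**
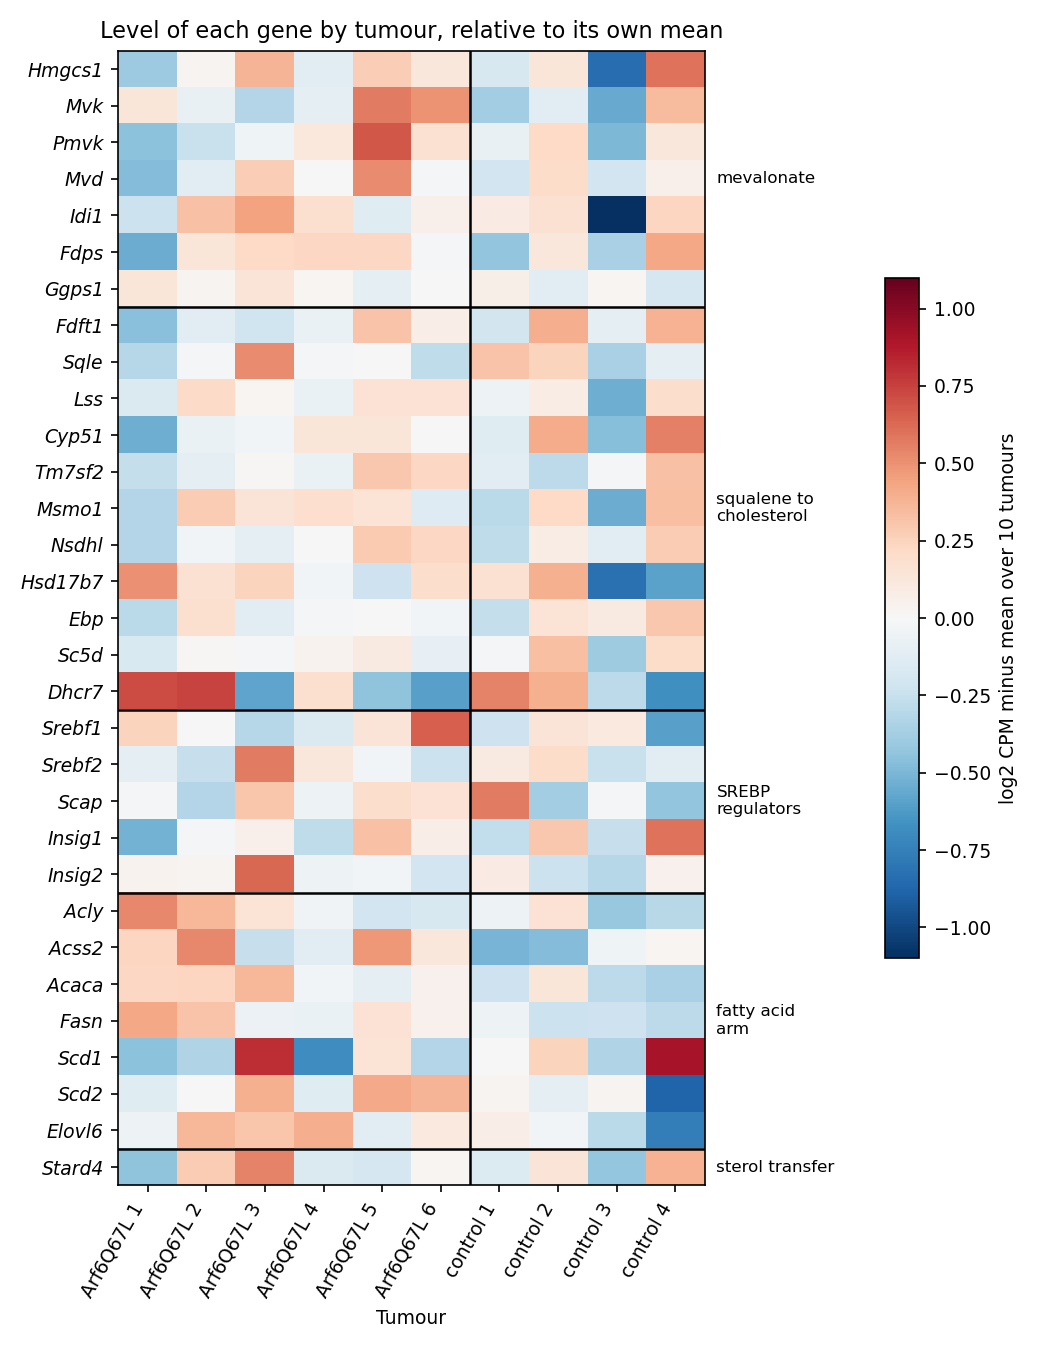
Level of the 31 genes in each of the 10 tumours, as log2 CPM minus the mean of the gene over all tumours, with Arf6Q67L tumours at left, controls at right and genes grouped by role. Control 3 and Arf6Q67L tumour 1 are blue across most sterol genes, and control 4 is above the mean for 14 of 18 sterol genes but blue for Scd2, Elovl6 and Srebf1.

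Sterol genes differed more between individual tumours than between genotypes. The level of an arm in a tumour was taken as the mean over its genes of log2 CPM relative to the average of each gene over the 10 tumours. For the sterol arm it ran from -0.19 to 0.16 in Arf6Q67L tumours (median 0.04) and was -0.08, 0.17, -0.39 and 0.16 in controls 1 to 4. The means were 0.03 ± 0.12 (SD, n = 6) in Arf6Q67L tumours and -0.04 ± 0.26 (SD, n = 4) in controls. Control 3 had the lowest level of 9 of 18 sterol genes and Arf6Q67L tumour 1 of 6 of 18. Control 4 was among the highest 2 tumours for 10 of 18 and had the lowest level of 2. Without control 3, 5 of 18 sterol genes were positive and the median was -0.03. With the T cell marker level as a term the median was 0.22 and 14 of 18 were positive. In that fit Mvk and Pmvk had an unadjusted p under 0.05, where 0 sterol genes did without the term. Over all 17286 genes, 468 were higher and 603 lower at such a p with the term, against 804 and 1219 with genotype alone. The edgeR adjusted p-values with the term were 0.758 for Mvk and 0.760 for Pmvk.

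The fatty acid arm ordered the tumours differently. Its level ran from -0.09 to 0.24 in Arf6Q67L tumours (median 0.11) and was -0.11, -0.04, -0.23 and -0.24 in controls 1 to 4. In 5 of 6 Arf6Q67L tumours it was above every control, and tumour 4 lay within the control range. The means were 0.10 ± 0.12 (SD, n = 6) in Arf6Q67L tumours and -0.15 ± 0.09 (SD, n = 4) in controls. The level of the fatty acid arm minus that of the sterol arm ran from -0.12 to 0.30 in Arf6Q67L tumours (median 0.07) and from -0.39 in control 4 to 0.17 in control 3, so the groups overlapped. Control 4 had the lowest level of 4 of 7 fatty acid genes while standing high in sterol genes, and Arf6Q67L tumour 1, low in sterol genes, had the highest level of 2 of 7. Without control 4 the median fold change of the fatty acid arm was 0.26, and in each case 6 of 7 genes were positive, whichever tumour was left out.

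**Figure D4:**
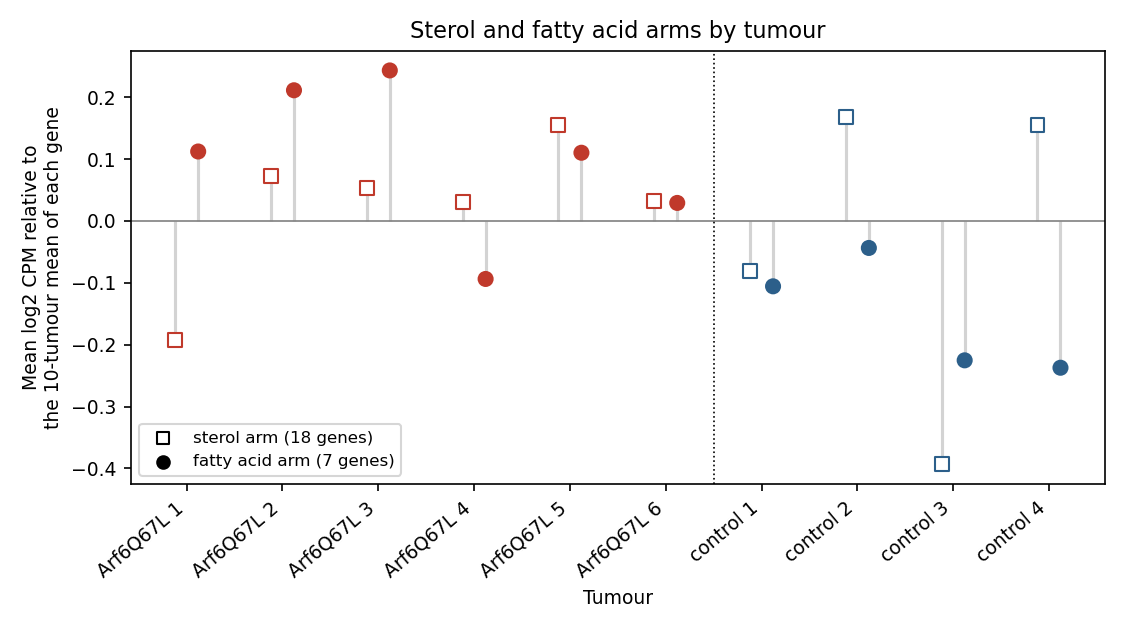
Mean log2 CPM of the sterol arm (open squares, 18 genes) and the fatty acid arm (filled circles, 7 genes) in each tumour, relative to the mean of each gene over the 10 tumours, with Arf6Q67L tumours left of the dotted line and controls right of it. The fatty acid arm lies above every control in 5 of 6 Arf6Q67L tumours, while sterol arm values of both genotypes overlap.

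Promoters were examined because genes of this pathway share a set of regulators. RefSeq promoter sequences of GRCm38.p6 were matched for 25 of the 31 genes, in 33 windows, and the 250 bases before each start were searched on both strands. The letters searched were TCACNCCAC, a form of the sterol regulatory element, CCAAT, the box bound by NF-Y, which acts with SREBP, and the E-box CACGTG. The 4 stretches printed here show how matches, in capitals, are placed in genes of both arms, and 1 stretch without any. They are from Hmgcs1 (chr13:119690101-119690250, plus strand) and Mvk (chr5:114444089-114444238, plus strand) for the sterol arm and Fasn (chr11:120824548-120824697, minus strand) and Elovl6 (chr3:129532196-129532345, plus strand) for the fatty acid arm.
Hmgcs1: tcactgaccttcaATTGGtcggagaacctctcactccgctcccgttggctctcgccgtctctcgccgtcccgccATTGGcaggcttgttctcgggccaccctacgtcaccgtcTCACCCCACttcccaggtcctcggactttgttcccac
Mvk: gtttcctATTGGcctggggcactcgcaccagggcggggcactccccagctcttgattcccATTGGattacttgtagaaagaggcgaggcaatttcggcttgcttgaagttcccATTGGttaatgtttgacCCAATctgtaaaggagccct
Fasn: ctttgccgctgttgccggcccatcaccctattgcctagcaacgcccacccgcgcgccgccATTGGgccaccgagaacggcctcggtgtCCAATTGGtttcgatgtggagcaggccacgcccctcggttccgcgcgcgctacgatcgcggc
Elovl6: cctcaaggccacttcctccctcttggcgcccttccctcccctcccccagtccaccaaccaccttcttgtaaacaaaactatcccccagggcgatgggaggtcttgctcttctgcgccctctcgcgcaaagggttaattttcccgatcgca
ATTGG is the CCAAT box on the other strand, and in Fasn the forward and reverse boxes overlap.

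A CCAAT box stood in 15 of 15 sterol enzymes with a window, in 4 of 5 regulators and in 2 of 5 fatty acid enzymes, Acss2 and Fasn. Counted by window, it stood in 22 of the 33 windows of these genes, against 33.8% of all promoter windows and 34.7% of the windows of genes tested here. Hmgcs1 was the only one of the 25 genes with TCACNCCAC, which 1.05% of all windows hold. CACGTG stood in 5 of the 25 genes (Dhcr7, Hsd17b7, Sc5d, Insig1 and Scap), in 5 of the 33 windows, against 6.02% of all windows and 7.78% of the windows of genes tested here. A match is a description of the letters and does not show binding.

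Other genes of the pathway were read from lists chosen by role. A list of 14 further genes set beside the sterol arm held genes of transport, SREBP processing and reductase turnover, and also Acat2, Soat1, Lpin1, Nus1 and Dhdds. Of these 14 genes 10 were positive, at a median log2 fold change of 0.07, and in edgeR 0 had an unadjusted p under 0.05. The 4 with the lowest p were the SREBP protease gene Mbtps2 (0.28, SE 0.16), Erlin1 (0.19, SE 0.11), and the lysosomal cholesterol transporters Npc2 (-0.33, SE 0.21) and Npc1 (-0.21, SE 0.19). Npc1 was at 117 CPM in control 4 and between 58.8 and 73.7 CPM in the other 9 tumours. Of 26 further fatty acid genes 25 passed the filter on low counts, with Pnpla3 below it. Their median was 0.02, with 14 positive and 1 of 25 at an unadjusted p under 0.05.

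That gene was Acsl5, an acyl-CoA synthetase that activates free fatty acids, which averaged 115 ± 12.1 CPM in the 6 Arf6Q67L tumours against 152 ± 37.4 CPM in the 4 control tumours (mean ± SD) and had a log2 difference of -0.40 (SE 0.15, edgeR adjusted p = 0.364). Without control 4 that difference was -0.22 (unadjusted p = 0.0935). The others with the lowest p were the elongase Elovl7 (0.99, SE 0.46), at 1.24 CPM or less in every tumour, the desaturase Fads1 (0.30, SE 0.15) and Gpam, which starts glycerolipid synthesis (0.38, SE 0.20). Their edgeR adjusted p-values lay between 0.364 and 0.479.

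Genes of the liver X receptors, which sense oxysterols, and of sterol efflux were negative in 10 of 11 cases, at a median log2 fold change of -0.37. Of all 17286 genes tested 8702 were negative. In this list the groups separated fully for 2 genes, in opposite directions, where 1.15% of all genes separated upward and 1.28% downward. Control 4 was the highest tumour for Abcg1, Apoe, Nr1h3 (38.1 CPM), Cyp27a1 (22.9 CPM) and Smpdl3a (46.7 CPM). It was not the highest for Nr1h2, Abca1, Mylip, Lpcat3, Ch25h or Cyp7b1. The list median without control 4 was not computed. Abcg1, a transporter that passes cholesterol to lipoprotein particles (ENSMUSG00000024030, chromosome 17, 31057675 to 31117988, plus strand, GRCm38), ran from 13.9 to 24.4 CPM in Arf6Q67L tumours (median 21.1) and was at 27.97, 42.5, 25.9 and 76.6 CPM in controls 1 to 4. Every Arf6Q67L tumour was below every control. The log2 difference of -1.07 (SE 0.29) had edgeR adjusted p = 0.281 and DESeq2 adjusted p = 0.0386, and it was -0.63 without control 4. Abca1, which exports cholesterol to apolipoproteins (ENSMUSG00000015243, chromosome 4, 53030787 to 53159895, minus strand, GRCm38), ran from 217 to 320.4 CPM in Arf6Q67L tumours (median 251) and was at 195, 202, 205 and 216 CPM in controls 1 to 4. Every Arf6Q67L tumour was above every control, tumour 5 narrowly so, with a log2 fold change of 0.36 (SE 0.14, edgeR adjusted p = 0.364, DESeq2 adjusted p = 0.183).

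Apoe, the lipid carrier apolipoprotein E, stood at -0.63 (SE 0.31) and Ch25h, the cholesterol hydroxylase that interferon induces, at -0.89 (SE 0.46), with edgeR adjusted p-values of 0.465 and 0.483. Without control 4 Apoe stood at -0.37, and without Arf6Q67L tumour 5 Ch25h stood at -1.45. Apoe was at 580.1 to 1100.4 CPM in Arf6Q67L tumours, against 536 to 1480.0 CPM in controls 1 to 3 and 1792 CPM in control 4. Macrophages express Abcg1 and Apoe strongly, and 7 of 8 macrophage markers were negative too, at a median of -0.88. The other marker, Mrc1, was positive (0.60), as was Abca1 of the efflux genes (0.36). The part of macrophage number in these values was not tested.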

How the data were processed

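Polyadenylated RNA of 10 tumours (6 Arf6Q67L, 4 control) was extracted with a Qiagen kit and made into Illumina TruSeq Stranded libraries, per the labels' protocols. The authors deposited raw counts per gene, 1 column per library, and 0 columns were left unmapped. Per the submitters' processing notes, the build was GRCm38 and the tools were STAR 2.5.2b, featureCounts 1.5.1 and DESeq2 1.18.0. No source used here gives the strand setting or how multiply mapped reads were counted. Arf6Q67L libraries were numbered 1 to 6 and control libraries 9 to 12, which means that library order cannot be told apart from genotype. Symbols, coordinates and exon lengths came from GENCODE M21, which named 52403 identifiers.

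From the counts, edgeR 4.0.16 in R 4.3.3 was run on all tumours with genotype as the term: filterByExpr with a minimum count of 10 (17286 genes), TMM factors, robust glmQLFit, glmQLFTest, Benjamini-Hochberg adjustment over all genes and adjusted p under 0.05 as a call. Each log2 fold change has Arf6Q67L on top, and its SE is the fold change over the root of F. CPM use TMM factors, and arm levels log2 CPM with a prior count of 2. DESeq2 1.42.0 and limma 3.58.1 were alternatives, and simulated counts with known changes were used to test the edgeR step. A count of 0 allows up to 3 counts, or 0.0734 to 0.105 CPM, for counting error only.

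The 31 genes, the lists and the tests were chosen with earlier results of these data known. Values per tumour are given for genes with an unadjusted p under 0.05, Srebf1, Srebf2, Insig1, Hmgcs1, Sqle, Fasn, Scd1, and the highest and lowest gene of each list, with up to 4 genes of lowest p in the other lists; those of Acly, Scd2, Dhcr7 and Idi1 were added after values were seen. No score over the 31 genes was tested. Tumour numbers follow accession order and pair no tumours.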

Additional observations from a re-analysis of the deposited data

Results flagged for a closer look

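In 68 groups of values, those of the 31 genes and of the 3 arm levels in each genotype, 7 held a tumour far from the others by Dixon's criterion, which chance meets in about 1 of 20 groups. In Arf6Q67L tumour 1 the sterol arm level was -0.19, Fdps was at 4.66 CPM and Cyp51 at 47.1 CPM, each below the other 5 tumours of its group. Arf6Q67L tumour 3 stood above its group for Sqle (104 CPM) and Insig2 (50.6 CPM). Control 3 stood below its group for Idi1 (6.20 CPM), and control 4 below it for Scd2 (310.4 CPM).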

How the results depend on the processing

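Under 17 alternatives (other normalization, no filter on low counts, DESeq2, limma-voom, a marker level as a term, each tumour left out) 0 of the 31 genes passed the adjusted threshold. Over all genes, edgeR called 0 higher and 0 lower, DESeq2 167 and 246, limma-voom 1 and 1, and edgeR 0 to 1 higher when a tumour was left out, with 1 called without control 1. The 3 genes higher at an unadjusted p under 0.05 became 1 (Fasn) with the adipocyte term. With the T cell term 0 of these 3 kept such a p while Mvk and Pmvk gained one. Over all genes, 468 were higher and 603 lower at such a p with the T cell term, against 804 and 1219 with genotype alone. With the adipocyte term they were 876 and 896. Of the 3, Fasn alone kept such a p with the term for Y-linked genes. In limma-voom Acaca lost it (0.135). Acss2 gained such a p in DESeq2, in limma-voom, with the Y-linked term, without Arf6Q67L tumour 3 and without control 4. Of all 31 genes, 1 to 3 were higher at such a p when a tumour was left out, with 1 (Fasn) without Arf6Q67L tumour 2 and without control 3. Without Arf6Q67L tumour 3 and without control 4 they were Fasn and Acss2, so Fasn alone of the first 3 remained there. Fasn kept such a p in each of 10 fits that left out a tumour, Elovl6 in 5 and Acaca in 4. The fatty acid median was 0.23 in limma-voom and 0.26 to 0.38 when a tumour was left out. When a tumour was left out, 5 to 14 sterol genes were positive at a median of -0.03 to 0.16, and the median of the 5 regulators was 0.020 to 0.21. Abcg1 passed only in DESeq2 (-1.06, adjusted p = 0.0386; edgeR and limma-voom gave no call).

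The sign held in every alternative for 12 of the 31 genes and changed for 19. With the T cell term it changed for Ggps1 (-0.0033), Fdft1 (0.070), Cyp51 (0.17), Sc5d (0.11), Dhcr7 (-0.24), Scap (-0.050) and Insig1 (0.12). With the adipocyte term it changed for Sc5d (0.013) and Scap (-0.021), with a term for Y-linked genes for Dhcr7 (-0.020) and Srebf2 (-0.035), and in limma-voom for Srebf2 (-0.038). Leaving out 1 tumour gave ranges across 0 for Hmgcs1 (-0.15 to 0.32), Pmvk (-0.042 to 0.21), Mvd (-0.021 to 0.18), Idi1 (-0.040 to 0.32), Fdps (-0.036 to 0.27), Sqle (-0.15 to 0.059), Lss (-0.015 to 0.22), Tm7sf2 (-0.040 to 0.18), Msmo1 (-0.045 to 0.25), Nsdhl (-0.061 to 0.13), Sc5d (-0.20 to 0.035), Dhcr7 (-0.13 to 0.24), Srebf2 (-0.075 to 0.12), Scap (-0.048 to 0.32), Insig1 (-0.29 to 0.027), Stard4 (-0.093 to 0.18) and Npc1 (-0.31 to 0.096). Genes that kept their sign but moved by over 1.5 times when a tumour was left out were Mvk (0.17 to 0.50), Ggps1 (0.058 to 0.13), Fdft1 (-0.31 to -0.11), Cyp51 (-0.35 to -0.017), Hsd17b7 (0.12 to 0.52), Ebp (-0.22 to -0.039), Srebf1 (0.12 to 0.34), Insig2 (0.063 to 0.26), Acly (0.17 to 0.38), Scd1 (-0.57 to -0.029), Scd2 (0.20 to 0.44), Acsl5 (-0.52 to -0.22), Elovl7 (0.60 to 1.183), Fads1 (0.20 to 0.37), Gpam (0.25 to 0.48), Abcg1 (-1.25 to -0.63), Apoe (-0.88 to -0.37) and Ch25h (-1.45 to -0.71). The cause of these changes was not tested. No paired analysis was possible because the labels give the tumours no shared replicate numbers. The lowest raw count of the 31 genes was 151.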
